A study of Mus musculus with 4 samples.

Results

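The nuclear genes of oxidative phosphorylation (OXPHOS) were examined for peaks of KDM5C, also called SMCX, in mouse epiblast-like cells (EpiLCs). They were taken by symbol as the protein-coding genes of the mm9 GENCODE M1 annotation that begin with Nduf, Uqcr, Cox4 to Cox8 or Atp5, together with Sdha to Sdhd. The rule gave 92 genes of 22367 protein-coding genes on assembled chromosomes, and no measured value entered it. Of the 92 entries, 83 were counted as structural subunits, and the complex of each gene was likewise taken from its symbol. The other 9 were 4 complex I assembly factors, 4 genes that carry such a symbol but were not counted as structural subunits (Atp5s, Atp5sl, Cox4nb and Cox7a2l), and Atp5l-ps1. Counts by complex go by symbol and include these 9, whether or not their products belong to that complex. Ndufb8 was present as a pair of annotated entries, and both were kept.

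OXPHOS is carried out in the inner mitochondrial membrane by complex I (NADH dehydrogenase), complex II (succinate dehydrogenase), complex III (the cytochrome bc1 complex), complex IV (cytochrome c oxidase) and complex V (ATP synthase). Except for complex II, each complex joins subunits encoded in mitochondrial DNA to subunits encoded in the nucleus, which are made in the cytosol and imported. Most of the nuclear genes are expressed in nearly every tissue, while several cytochrome c oxidase subunits have isoforms restricted to muscle, lung or testis. KDM5C is a demethylase of di- and trimethylated lysine 4 on histone H3 and leaves the monomethylated form. By the study, the di- and trimethylated forms are enriched at active genes.

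ChIP-Seq used an antibody against KDM5C on chromatin of male cells at day 2 of differentiation, with C57BL/6J given as the strain. All of the cells carried a Tsix truncation on their only X chromosome (XΔTsixY). The study's methods and reporting form name other mouse strains and a mixed background, so the strain is not settled here. The groups were WT cells with an intact Kdm5c gene, and KO cells with a Kdm5c allele that lacks the exons of the JmjC demethylase domain and leaves barely detectable mutant protein. Each genotype had 1 immunoprecipitated and 1 input sample in the records, 4 samples in all, and 1 deposited peak list. The labels describe EpiLC conversion only, whereas the study's methods place the cells 2 days past that stage, so the stage is not settled here. By the methods, the WT list came from replicate samples and the KO list from a lone sample. The lists held 6916 WT peaks and 44 KO peaks on assembled chromosomes. Peak lists carry no expression and no read depth, so neither the labelled cell type nor the depth behind a peak could be checked, and no test between genotypes was possible. A gene was called bound when the midpoint of a peak lay within 1 kb of any of its annotated transcription start sites (TSSs).

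In WT cells 29 of the 92 OXPHOS genes were bound, which is 31.5% (exact 95% interval 22.2 to 42.0%, counting error over genes only). By the same rule 24.0% of all protein-coding genes were bound. OXPHOS promoters held more CpG than most, since 70 of 92 (76.1%) were CpG-rich against 44.2% of all protein-coding promoters. CpG-rich here means a ratio of observed to expected CpG of at least 0.6 and a GC content of at least 50% over 500 bp on either side of the 5′ end of the gene. Protein-coding promoters with the CpG ratios of the OXPHOS genes were bound at 36.1%, which would be 33.2 of 92 genes. The share of bound OXPHOS genes was thus between the share of all genes and the share of promoters of similar CpG ratio, and its interval held both. With only peaks at or above the WT median score, 10 OXPHOS genes were bound (10.9%), beside 13.0% of all protein-coding genes. No interval and no share at similar CpG ratio were taken at this score, and the difference was not tested.

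**Figure D1:**
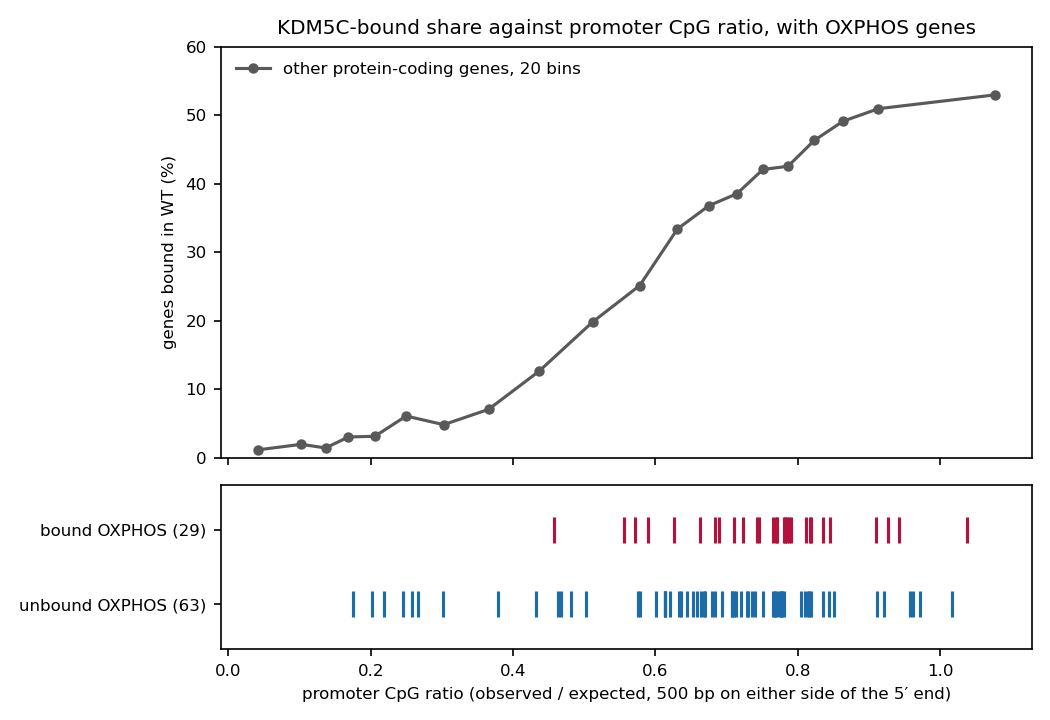
Upper panel, percent of the other protein-coding genes bound in WT in 20 bins of promoter CpG ratio (observed over expected), each point a bin. Lower panel, 1 tick per OXPHOS gene, with 29 bound and 63 unbound: bound and unbound genes overlap over most of the range. With the ratio taken at the 5′ end, no gene below 0.457, the value of Atp5f1, was bound.

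Among CpG-rich promoters, 25 of 70 OXPHOS genes were bound, 35.7% (24.6 to 48.1%), beside 44.1% of all CpG-rich protein-coding promoters. Among the 22 OXPHOS promoters that were not CpG-rich, 4 were bound, beside 1004 of 12487 such promoters of all protein-coding genes. The 4 were those of Ndufa5, Ndufb10, Ndufs8 and Atp5f1. The ratio was taken at the 5′ end, but the summits of Ndufa5 and Atp5f1 lay 526 and 485 bp into the gene. The highest CpG ratio over the TSSs of these genes was 0.776 for Ndufa5 and 0.872 for Atp5f1. Within the CpG-rich genes the median CpG ratio was 0.782 for the bound and 0.735 for the unbound ones, and the ranges overlapped from 0.626 to 1.02. A high ratio did not come with a peak in every gene. Cox4i1 at 0.972, Cox6a1 at 0.962 and Ndufv2 at 0.911 were unbound, while Ndufb10 at 0.571 was bound.

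The 150 bases upstream of the annotated 5′ end (mm9, read 5′ to 3′ on the strand of the gene, CpG dinucleotides in capitals) are shown for 3 strongly bound genes and for Cox4i1, which has the most CpG-dense upstream sequence of the broadly expressed isoforms considered below and was unbound.
Ndufaf4 (chr4:24825080-24825229, + strand, 19 CpGs): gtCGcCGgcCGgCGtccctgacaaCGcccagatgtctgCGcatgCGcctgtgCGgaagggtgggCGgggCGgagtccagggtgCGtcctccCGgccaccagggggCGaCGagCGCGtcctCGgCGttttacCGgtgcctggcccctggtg
Cox5b (chr1:36748182-36748331, + strand, 17 CpGs): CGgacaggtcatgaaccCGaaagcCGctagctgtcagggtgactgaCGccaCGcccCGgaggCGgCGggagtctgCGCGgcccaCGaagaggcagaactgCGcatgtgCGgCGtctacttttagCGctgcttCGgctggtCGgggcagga
Atp5g2 (chr15:102501479-102501628, - strand, 14 CpGs): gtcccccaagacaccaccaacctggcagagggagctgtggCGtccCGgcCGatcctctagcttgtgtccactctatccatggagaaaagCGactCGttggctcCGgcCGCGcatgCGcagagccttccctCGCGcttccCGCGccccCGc
Cox4i1 (chr8:123192040-123192189, + strand, 23 CpGs): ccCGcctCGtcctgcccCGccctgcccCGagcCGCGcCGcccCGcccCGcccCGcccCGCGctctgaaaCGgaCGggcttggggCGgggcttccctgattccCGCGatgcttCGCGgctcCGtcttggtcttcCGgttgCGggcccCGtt

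Cox4i1 had 23 CpGs in this window and these 3 bound genes had 14 to 19, while Cox5a, which was bound with a score of 192, also had 23. Over this window the median was 11 CpGs (range 0 to 23) for the 29 bound OXPHOS genes, 9 (0 to 24) for the 63 unbound ones, and 6 for all protein-coding genes.

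In KO cells 0 of the 92 genes were bound, beside 21 protein-coding genes in all (0.0939%). None of the 29 WT peaks at OXPHOS genes overlapped a KO peak by even 1 bp. No OXPHOS gene had a KO peak within 5 kb, and the nearest midpoint lay 137370 bp from Sdhb. The KO list rests on fewer samples than the WT list, and the part of that difference in the count of 0 was not tested.

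Peak strength varied widely among the bound genes. The score deposited for a peak is 10 times the −log10 of its q-value against input, with decimals dropped, and a fold enrichment over input is given with it. Ndufaf4, an assembly factor of complex I, had the strongest peak (chr4:24824988-24825618), scoring 813 at a fold enrichment of 11.2, with its midpoint 11 bp from a TSS. That score exceeded those of 98.2% of WT peaks. Ndufa13, an accessory subunit of complex I, followed at a score of 667 and 10.2-fold enrichment (chr8:72426209-72427319). Its summit lay 509 bp upstream of the TSS, inside the coding sequence of Tssk6, a testis-specific kinase gene on the opposite strand whose 5′ end was 374 bp away. The peak lay wholly within Tssk6 and covered the TSS of Ndufa13.

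Atp5g2, which encodes subunit c of the ATP synthase rotor ring, scored 353 at 6.36-fold enrichment (chr15:102501010-102501675). The cytochrome c oxidase genes Cox5b (chr1:36748073-36748686) and Cox5a (chr9:57368688-57369390) had scores of 303 and 192 and fold enrichments of 6.48 and 4.64, with midpoints 40.5 and 0 bp from a TSS. The scores of these 5 genes were all above 82, the median of the WT list.

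Atp5d, the delta subunit of the ATP synthase central stalk, scored 213 at 4.51-fold enrichment (chr10:79604907-79605384). This peak lay at a downstream annotated TSS, with its summit 3737 bp into the gene, and the 5′ end of the gene itself had no peak within 1 kb. Atp5e, the epsilon subunit, scored 191 at 5.51-fold enrichment (chr2:174288986-174289634). Sdha, the flavoprotein of succinate dehydrogenase, scored 143 at 3.76-fold enrichment (chr13:74487319-74487841). The last of the 10 highest were Ndufaf2, an assembly factor, at 109 and 4.35 (chr13:108948478-108948839), and Ndufa1, an X-linked accessory subunit, at 98 and 5.04 (chrX:34730925-34731505). The Ndufa1 peak was nearer to the TSS of Rnf113a1, 82 bp away on the opposite strand, than to that of Ndufa1.

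At the low end were Ndufb10, which scored 28 at 2.37-fold enrichment (chr17:24860909-24861300), Ndufa5 with 25 and 2.40 (chr6:24477329-24477764), and Cox7a2 with 22 and 2.32 (chr9:79607545-79607852). These peaks outscored only 8.02%, 6.16% and 4.35% of the WT list. The other 16 bound genes had scores from 33 to 81.

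**Figure D2:**
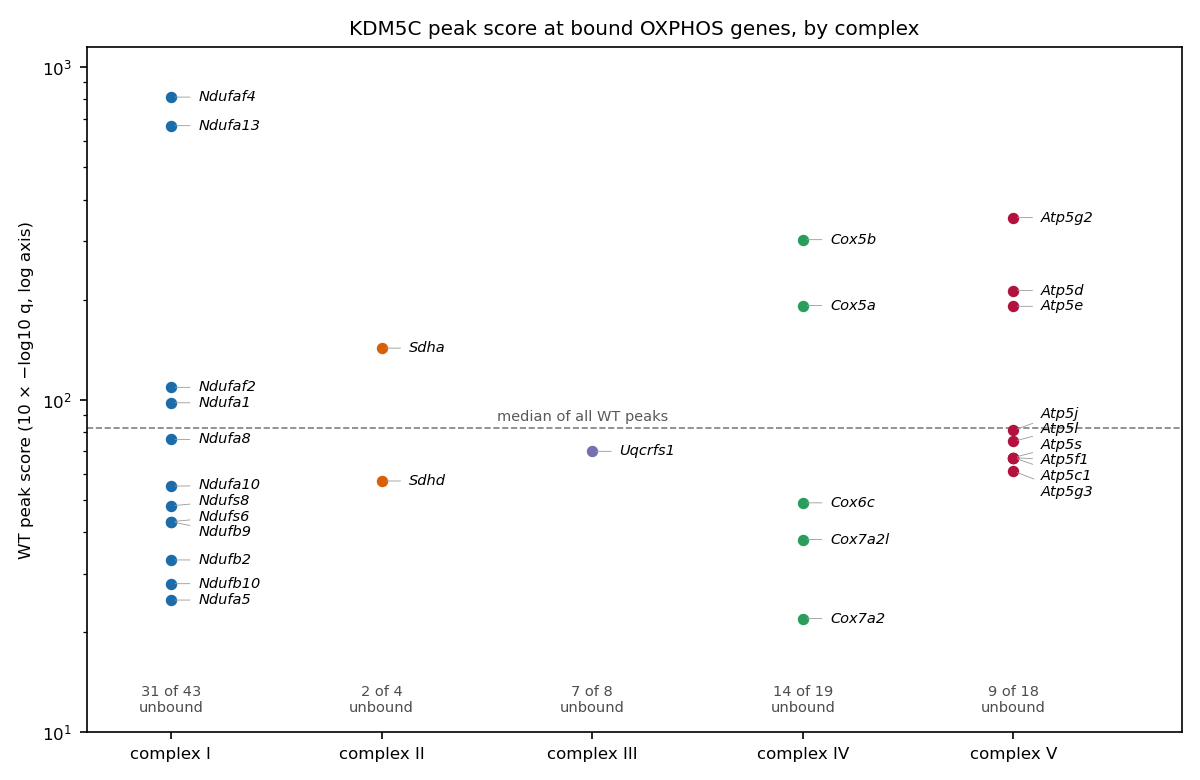
WT peak score (10 times −log10 q, log axis) of each bound OXPHOS gene, 1 point per gene, by complex, with the number of unbound genes under each. Ndufaf4 at 813 and Ndufa13 at 667 stand above the rest, and 10 of 29 points reach the median of all WT peaks (dashed line, 82).

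OXPHOS peaks scored lower in the middle of their range than peaks at bound genes in general, but not at the top. The median score was 67 (quartiles 48 and 143) at the 29 bound OXPHOS genes and 90 (53 and 177) at all 5357 bound protein-coding genes, and the median fold enrichments were 3.35 and 3.77. Scores at or above the WT median were found at 10 of 29 bound OXPHOS genes, 34.5% (17.9 to 54.3%), and at 54.1% of bound protein-coding genes. A score at or above 320, the WT 90th percentile, was reached at 3 of 29, 10.3% (2.19 to 27.4%), and at 11.6%. Both intervals held the share of all bound protein-coding genes. These are descriptions over genes from 1 list, with no test.

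The rule places the midpoint of each bound peak within 1 kb of a TSS, so some closeness is built into the calls. Offsets are to the nearest annotated TSS, which for Atp5d lay far from the 5′ end of the gene. The distance from summit to nearest TSS of the gene had a median of 86 bp (quartiles 52 and 192) at bound OXPHOS genes and of 176 bp (87 and 309) at bound protein-coding genes. The summit was within 250 bp at 25 of 29, 86.2% (68.3 to 96.1%), beside 66.4%. It lay downstream of the TSS at 18 of 29, 62.1%, beside 60.4%. The 4 summits beyond 250 bp were those of Ndufa13, Atp5l, Atp5f1 and Atp5j. The peak widths had a median of 523 bp, beside 548 bp.

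**Figure D3:**
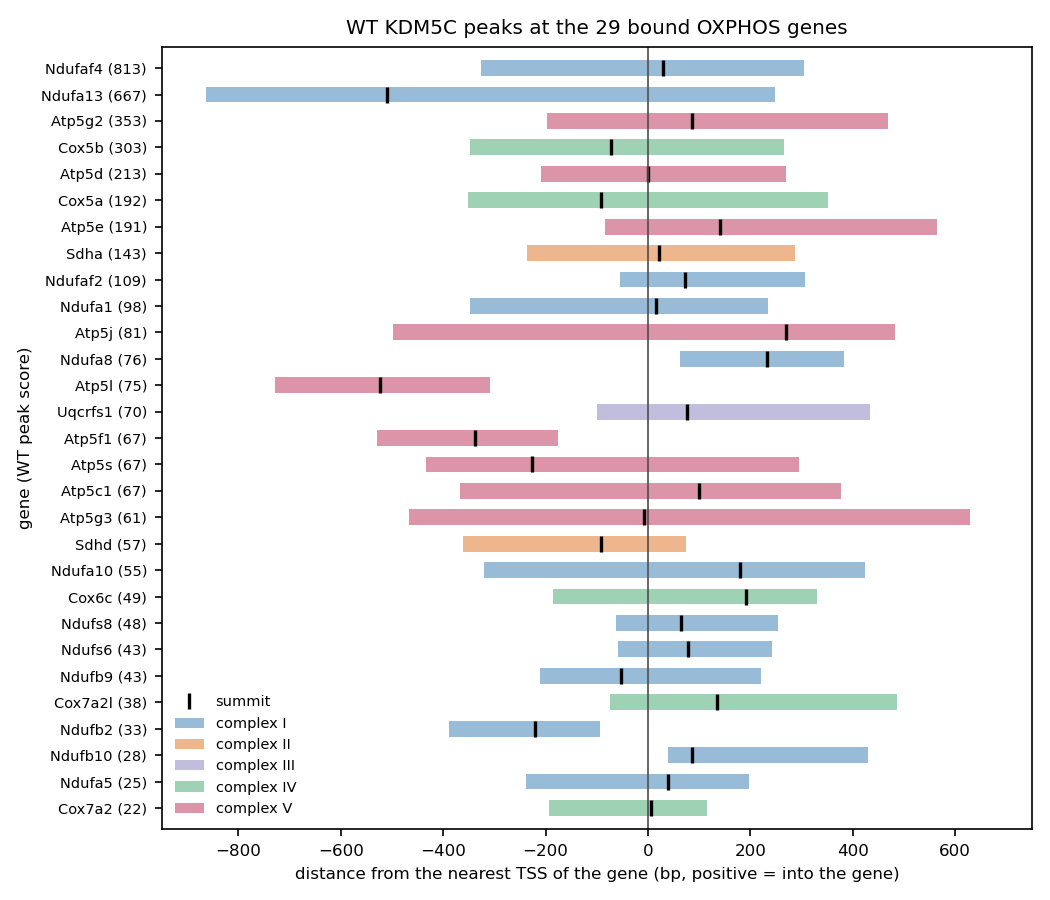
Extent of the WT peak (bar) and its summit (black tick) relative to the nearest TSS of each of the 29 bound OXPHOS genes, in bp with positive values into the gene, ordered by score and coloured by complex. At 24 genes the bar covers the TSS, and the summits of Ndufa13 and Atp5l lie over 500 bp upstream.

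The 1 kb limit fell in a gap. The farthest bound gene was Atp5l, with a midpoint 519 bp from its TSS, and the closest unbound gene was Ndufaf3, at 3206.5 bp, whose nearest peak was closer to Dalrd3. The next were Uqcr11 at 6603.5 bp from a peak near Mbd3, Ndufa7 at 6778.5 bp from a peak of score 586 nearest Kank3, Ndufc1 at 7037 bp from a peak at Naa15, and Ndufa4l2 at 7210.5 bp from a peak near Shmt2. The median distance over the 63 unbound genes was 47626 bp, and for each of them the nearest midpoint lay outside the annotated gene. Cox7c was the farthest, at 856820 bp.

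Complex I had 12 of 43 genes bound, 27.9% (15.3 to 43.7%), beside 37.5% for promoters of similar CpG ratio. Of its 7 core subunits encoded in the nucleus, which form its catalytic core, only Ndufs8 was bound, with a score of 48. Among the unbound ones, Ndufs1, Ndufs3 and Ndufv1 were 23534, 8558 and 95396 bp from the nearest midpoint. Of the 4 assembly factors, Ndufaf2 and Ndufaf4 were bound and Ndufaf1 and Ndufaf3 were not. Another 32 entries were counted as subunits by symbol, with Ndufa4, Ndufa4l2 and both Ndufb8 entries among them. Of these 32, 9 were bound: Ndufa1, Ndufa5, Ndufa8, Ndufa10, Ndufa13, Ndufb2, Ndufb9, Ndufb10 and Ndufs6. Apart from Ndufa13 at 667 and Ndufa1 at 98, their scores were 25 to 76. Of the 35 CpG-rich promoters of complex I, 9 were bound, 25.7% (12.5 to 43.3%), and 26 were not, beside 44.1% bound among all CpG-rich protein-coding promoters.

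In complex II, Sdha and Sdhd were bound, and Sdhb and Sdhc were not. Sdhd, a membrane anchor subunit, had a score of 57 at a peak nearer to the TSS of Timm8b, 52 bp away on the opposite strand. Sdhb, the iron-sulfur subunit, was 122780 bp and Sdhc, the other anchor, 85974 bp from the nearest midpoint.

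Complex III had 1 of 8 genes bound, 12.5% (0.316 to 52.7%). The gene was Uqcrfs1, for the Rieske iron-sulfur protein, which scored 70 at 3.42-fold enrichment. Its promoter had the highest CpG ratio of all bound OXPHOS genes, 1.04. The core genes Uqcrc1 and Uqcrc2 were unbound, at 104270 and 179730 bp, as were Uqcr10, Uqcr11, Uqcrb, Uqcrh and Uqcrq. Promoters of similar CpG ratio were bound at 40.6%, which would be 3.25 of 8 genes.

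Complex IV had 5 of 19 genes bound, 26.3% (9.15 to 51.2%), beside 30.4% for promoters of similar CpG ratio. The bound genes were Cox5a, Cox5b, Cox6c, Cox7a2 and Cox7a2l, the last of which encodes a supercomplex assembly protein. All 5 promoters were CpG-rich, and 5 other CpG-rich promoters of this group were unbound, those of Cox4i1, Cox4nb, Cox6a1, Cox7c and Cox8a. None of the 9 promoters that were not CpG-rich was bound, beside 1004 of 12487 such promoters of all protein-coding genes.

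Complex V had 9 of 18 genes bound, 50% (26.0 to 74.0%), beside 36.8% for promoters of similar CpG ratio, which would be 6.62 genes. All 3 genes of the central stalk were bound: Atp5c1 (gamma, score 67), Atp5d (213) and Atp5e (191). Both genes of the catalytic head, Atp5a1 (alpha) and Atp5b (beta), were unbound, with CpG ratios of 0.768 and 0.804 and the nearest midpoints 116710 and 8106.5 bp away. The c ring is encoded by 3 genes whose mature products are the same protein, and Atp5g2 (353) and Atp5g3 (61) were bound while Atp5g1 was 68157 bp from a midpoint. In the peripheral stalk Atp5f1 and Atp5j were bound, with scores of 67 and 81, and Atp5h and Atp5o were not. Of the small membrane subunits Atp5l was bound (75), and Atp5j2 and Atp5k were not. The shares of complexes I, III and V had overlapping intervals and were not tested against each other, and these groups by role were written with the calls known.

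All 8 tissue-restricted isoforms were unbound, a count of 0 that allows a share of up to 36.9%. None of their promoters was CpG-rich, and promoters of similar CpG ratio were bound at 8.30%, which would be 0.664 of 8 genes. The 7 broad counterparts had 1 bound gene, Cox7a2, at the lowest score of all bound OXPHOS genes, where promoters of similar CpG ratio would give 2.86. A difference between restricted and broad isoforms was therefore not detectable with these numbers of genes. Of the isoforms found mainly in testis, Cox6b2 (CpG ratio 0.432), Cox7b2 (0.468) and Cox8c (0.463) were 35975, 109750 and 20706 bp from the nearest midpoint. Their broad partners Cox6b1 (0.777), Cox7b (0.482) and Cox8a (0.693) were unbound as well, at 8641.5, 7770 and 23462 bp. Among isoforms of heart and skeletal muscle, Cox6a2 (0.266), Cox7a1 (0.258) and Cox8b (0.245) were 32143, 48488 and 18226 bp away. Of their broad partners, Cox6a1 was 47626 bp away and Cox7a2 (0.765) was bound. Cox4i2 (0.379), the lung isoform of Cox4i1, was 84509 bp away and Cox4i1 34402 bp. Ndufa4l2 (0.175), a hypoxia-induced relative of Ndufa4, was 7210.5 bp and Ndufa4 (0.720) 841730 bp away.

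**Figure D4:**
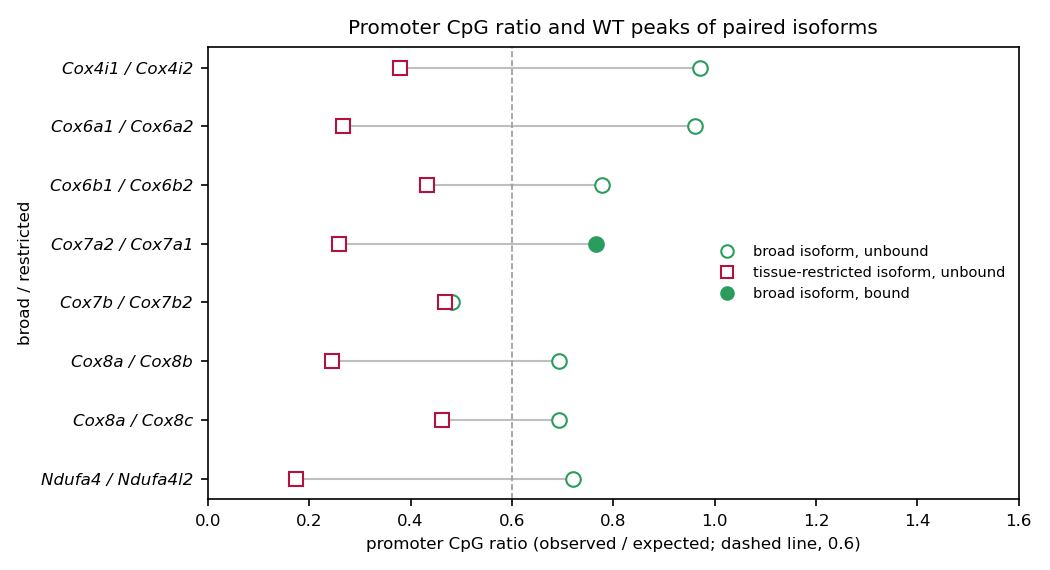
Promoter CpG ratio (observed over expected) of each broad isoform (circle) and its tissue-restricted relative (square), joined by a line, with filled symbols for genes bound in WT. The restricted isoforms lie between 0.175 and 0.468, and Cox7a2 at 0.765 is the only filled symbol.

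The sequence upstream of the testis isoforms, their broad partners, and the Cox7a2 and Cox7a1 pair shows how these promoters differ in CpG content (mm9, 150 bases upstream of the 5′ end, gene strand, CpG in capitals).
Cox6b1 (chr7:31411171-31411320, - strand, 9 CpGs): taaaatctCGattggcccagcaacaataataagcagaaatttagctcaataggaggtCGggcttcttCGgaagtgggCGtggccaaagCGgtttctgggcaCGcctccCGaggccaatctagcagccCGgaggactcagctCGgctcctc
Cox6b2 (chr7:4704697-4704846, - strand, 7 CpGs): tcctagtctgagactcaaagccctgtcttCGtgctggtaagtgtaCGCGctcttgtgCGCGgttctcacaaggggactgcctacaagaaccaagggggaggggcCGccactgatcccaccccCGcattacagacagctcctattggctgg
Cox7b (chrX:103210889-103211038, + strand, 3 CpGs): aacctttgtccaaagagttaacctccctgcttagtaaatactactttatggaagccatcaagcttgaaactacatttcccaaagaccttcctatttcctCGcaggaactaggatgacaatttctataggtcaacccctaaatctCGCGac
Cox7b2 (chr5:71939445-71939594, - strand, 7 CpGs): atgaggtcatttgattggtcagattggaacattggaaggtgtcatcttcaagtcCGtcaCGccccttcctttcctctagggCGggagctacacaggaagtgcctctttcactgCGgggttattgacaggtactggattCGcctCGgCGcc
Cox8a (chr19:7292107-7292256, - strand, 10 CpGs): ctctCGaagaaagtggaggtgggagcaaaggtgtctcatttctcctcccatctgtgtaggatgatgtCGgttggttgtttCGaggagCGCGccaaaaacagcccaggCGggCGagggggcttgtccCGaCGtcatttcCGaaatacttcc
Cox8c (chr12:104137366-104137515, + strand, 7 CpGs): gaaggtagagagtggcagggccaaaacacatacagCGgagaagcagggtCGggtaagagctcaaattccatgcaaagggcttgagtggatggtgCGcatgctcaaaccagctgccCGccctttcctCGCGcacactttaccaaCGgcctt
Cox7a2 (chr9:79607661-79607810, - strand, 11 CpGs): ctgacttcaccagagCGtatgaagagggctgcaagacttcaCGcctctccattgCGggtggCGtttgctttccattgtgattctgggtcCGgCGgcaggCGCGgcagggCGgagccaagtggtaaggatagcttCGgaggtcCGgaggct
Cox7a1 (chr7:30969040-30969189, + strand, 4 CpGs): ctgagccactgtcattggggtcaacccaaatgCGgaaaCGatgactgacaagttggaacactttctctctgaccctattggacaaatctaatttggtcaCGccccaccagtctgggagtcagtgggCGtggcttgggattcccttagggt

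Close to the 5′ end each testis isoform had 7 CpGs, beside 9, 3 and 10 in Cox6b1, Cox7b and Cox8a. Over these 150 bases the CpG ratios of Cox6b2, Cox7b2 and Cox8c were 0.543, 0.658 and 0.597, higher than over the wider window. Over all 8 restricted isoforms the median was 5.5 CpGs (range 1 to 12), and over the 7 broad ones 10 (3 to 23).

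Many OXPHOS genes had an opposite-strand neighbour starting close by. Only the distance between the 5′ ends was used, so overlapping pairs such as Ndufa13 and Tssk6 are included. The counts are therefore not counts of shared promoters. An opposite-strand protein-coding gene had its 5′ end within 1 kb for 30 of 92 OXPHOS genes, 32.6% (23.2 to 43.2%), and for 10.8% of all protein-coding genes. Of these 30 genes 12 were bound, 40.0%, and of the other 62 genes 17 were bound, 27.4%. Among all protein-coding genes the shares were 39.9% with such a neighbour and 22.0% without. Among CpG-rich OXPHOS promoters the counts were 10 of 27 (37.0%) and 15 of 43 (34.9%), and among all CpG-rich promoters both shares were 44.1%. At 4 of the 29 bound genes another gene had the nearer TSS, among them Rnf113a1 for Ndufa1, Timm8b for Sdhd and Wdr77 for Atp5f1. The midpoint of the Atp5j peak lay 8 bp from a TSS of Atp5j and 87 bp from a TSS of Gabpa. Gabpa encodes a subunit of an ETS-family activator of respiratory genes. For such pairs the lists do not say which gene the peak belongs to.

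Sequences known as binding motifs of regulators of respiratory genes were searched from 250 bases upstream to 50 downstream of the 5′ end, on both strands. The letters CGCATGCG, the core of the NRF1 motif, which reads the same on both strands, were found at 8 of 92 OXPHOS genes, 8.70% (3.83 to 16.4%), beside 2.23% of all and 4.24% of CpG-rich protein-coding promoters. Of these 8 genes 3 were bound (37.5%), those of Ndufaf4, Atp5g2 and Atp5l, and of the 84 OXPHOS genes without the letters 26 were bound (31.0%). At Ndufaf4 and Atp5g2 the letters lay within the peak, whereas at Atp5l they lay outside it (peak chr9:44729135-44729553). Among CpG-rich protein-coding promoters 51.1% were bound with the letters and 43.7% without. Of the CpG-rich OXPHOS promoters, 3 of 25 bound and 4 of 45 unbound ones had the letters. The matches at the 3 bound genes and at 2 unbound ones are shown with 11 bases on either side, with the matched letters in capitals.
Ndufaf4 (chr4:24825107-24825136, + strand, bound): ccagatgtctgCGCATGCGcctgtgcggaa
Atp5g2 (chr15:102501501-102501530, - strand, bound): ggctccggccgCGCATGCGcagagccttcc
Atp5l (chr9:44729048-44729077, - strand, bound): aaaaccaataaCGCATGCGcatttccccca
Cox6a1 (chr5:115799110-115799139, - strand, unbound): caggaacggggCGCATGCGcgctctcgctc
Uqcrc1 (chr9:108838681-108838710, + strand, unbound): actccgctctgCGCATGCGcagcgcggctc

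The letters AAGATGGC, a YY1 motif, or GCCATCTT on the other strand, were found at 11 of 92 OXPHOS genes, 12.0% (6.12 to 20.4%), beside 3.30% of all and 4.78% of CpG-rich protein-coding promoters. They were present at 1 of 29 bound OXPHOS genes, Atp5d, and at 10 of 63 unbound ones, 15.9% (7.88 to 27.3%). At Atp5d the match lay at the 5′ end of the gene, whereas the peak was at the downstream TSS. With CpG-rich promoters only, the letters were present at 1 of 25 bound and 8 of 45 unbound OXPHOS genes. Among all CpG-rich promoters they were present at 3.70% of the bound and 5.63% of the unbound ones. In 10 of the 11 genes the match began 22 to 40 bases downstream of the 5′ end on the strand of the gene, and in 9 the ATG within it opened an annotated coding exon. The match at Atp5d, where the ATG opens no annotated coding exon, is shown in the same way beside matches at unbound genes of complexes I and II, where it does.
Atp5d (chr10:79601393-79601422, + strand, bound): ggtgggggaggAAGATGGCtggagacccaa
Ndufs4 (chr13:115178249-115178278, - strand, unbound): ttgcctacaggAAGATGGCggcggtctcaa
Ndufa9 (chr6:126799115-126799144, - strand, unbound): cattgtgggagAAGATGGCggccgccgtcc
Ndufb8 (chr19:44629876-44629905, - strand, unbound): cggagaaggtgAAGATGGCtgccgcccggg
Sdhc (chr1:173080694-173080723, - strand, unbound): ggccggaactcAAGATGGCtgcgttcttgc

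The ETS core CCGGAAG was found at 18 of 92 OXPHOS genes (19.6%), beside 10.8% of all and 18.7% of CpG-rich protein-coding promoters, with 6 of 29 bound and 12 of 63 unbound genes. The E-box CACGTG was found at 2 of 29 bound and 7 of 63 unbound OXPHOS genes. With CpG-rich promoters only, these were 2 of 25 and 6 of 45, beside 14.4% of all bound and 8.65% of all unbound CpG-rich promoters. The E2F letters GGCGGGAA were found at 1 of 92 and CCAAT at 36 of 92, beside 2.82% and 37.9% of all protein-coding promoters. None of the motifs searched contains another, and a match describes the letters only.

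Other lists of respiratory genes are given for comparison, with no test of their differences from the OXPHOS genes. Of 10 carriers and associated proteins, 4 were bound (40%), and the 3 highest were Etfa, which passes electrons from fatty acid oxidation, at a score of 235, Cycs, the somatic cytochrome c, at 105, and Cyct, the testis cytochrome c, at 59. Cyct was bound with a CpG ratio of 0.332, below the 0.432 to 0.468 of the unbound testis isoforms of complex IV. Of 26 assembly factors found in the annotation, 9 were bound (34.6%), led by Tmem70 at 325 and by Atpaf1 and Cox15 at 76. Of 18 genes of pyruvate dehydrogenase and the tricarboxylic acid (TCA) cycle, 9 were bound (50%), led by Suclg2 at 189, Fh1 at 132 and Idh2 at 107. Promoters of similar CpG ratio were bound at 36.8%, 37.2% and 42.1% for these 3 lists.

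Of 16 regulators of respiratory genes and mitochondrial DNA, 10 were bound, 62.5% (35.4 to 84.8%), beside 42.2% for similar CpG ratios. The highest were Tfb1m, a mitochondrial rRNA methyltransferase, at 372, Polrmt, the mitochondrial RNA polymerase, at 350, and Yy1 at 217. Polrmt was the only gene of these lists bound in KO as well. Of 77 mitochondrial ribosomal protein genes 26 were bound, 33.8% (23.4 to 45.4%), with Mrpl23 at 678, Mrpl36 at 508 and Mrps26 at 433. Of 76 cytosolic ribosomal protein genes 30 were bound, 39.5% (28.4 to 51.4%), with Rps20 at 793, Rpl37a at 316 and Rpl14 at 190. Both ribosomal shares were below those of promoters of similar CpG ratio, 38.5% and 43.3%, with intervals that held them, as for the OXPHOS genes.

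**Figure D5:**
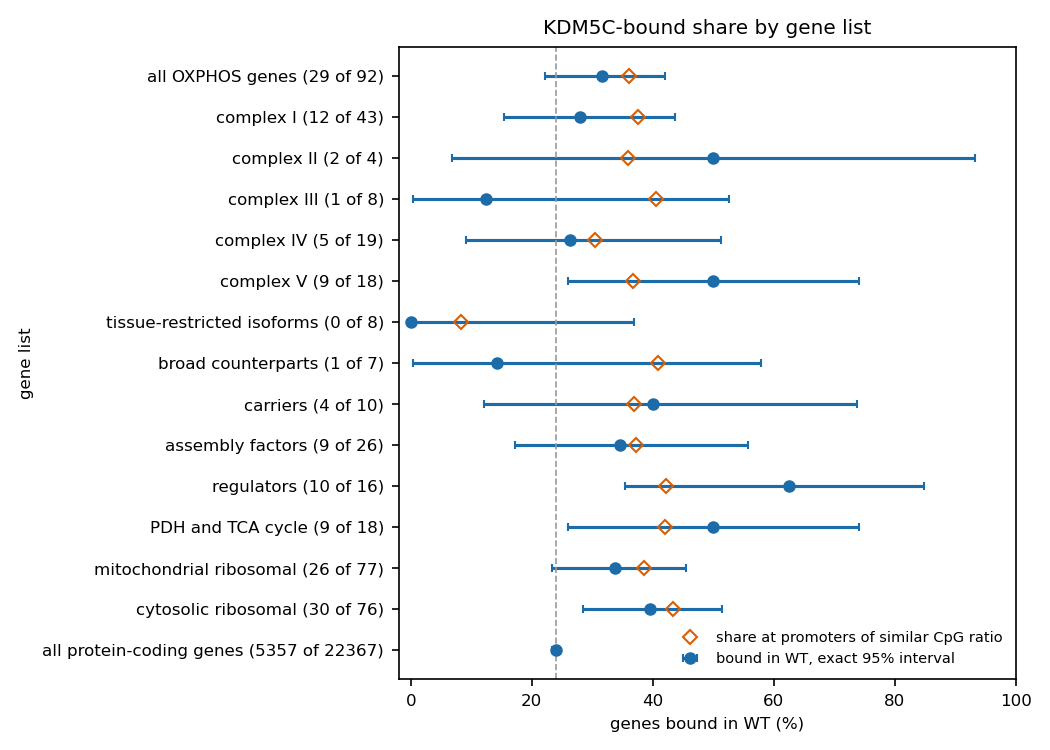
Percent of genes bound in WT (filled circle, exact 95% interval over genes) for the OXPHOS genes, their complexes and isoforms and the other lists, with the share at promoters of similar CpG ratio (open diamond) and of all protein-coding genes (dashed line, 24.0%). Every interval shown for a list holds its diamond.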

How the data were processed

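KDM5C ChIP-Seq and input of WT and Kdm5c KO cells were analysed from 1 deposited peak list per genotype, grouped by the sample titles. Per the study's methods, reads were aligned to mm9 with Bowtie (version 1.1.2 in the submitters' processing notes) and only those with a unique position were kept. Peaks were then called by the authors over input in MACS2 2.1.0.20140616. Unique mapping can lose peaks in repeated sequence. The deposited score, the deposited fold enrichment over input (a ratio) and the deposited −log10 of the q-value were used as given, those of the p-value not being used, and the score was checked to be 10 times −log10 q in every row. The study's reporting form states a minimum number of reads per sample, but depth could not be measured from the peak files.

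Annotation was GENCODE M1 on NCBIM37, the same assembly as mm9, with 37310 genes. Peaks past a chromosome end numbered 0. Python 3.11.15, NumPy 2.4.6 and SciPy 1.17.1 were used. Shares carry exact Clopper-Pearson 95% intervals, which cover counting error over genes only and take genes as independent. The share at similar CpG ratio is the mean, over members, of the bound share of other protein-coding genes in the member's bin of 20 bins. Described in full were the isoforms and their counterparts, the 10 highest and 3 lowest bound scores, the 5 closest unbound genes, any member with a KO peak within 5 kb, and the 3 highest scores of each other list. Some genes are not reported here. Of 37 assembly factor symbols, 11 were not found under that name. Members and lists were chosen with earlier results of these data known. The alternatives tried were the window, the TSS used, the score, the KO overlap, the nearest gene and the CpG window and bins.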

Additional observations from a re-analysis of the deposited data

How the results depend on the processing

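Of 32 alternatives over 11 results, 31 stayed close to the reported value and 1 moved. With peaks at or above the WT median score only, 10 OXPHOS genes were bound in place of 29, which is 10.9% beside 13.0% of all protein-coding genes. The other counts of bound OXPHOS genes were 24 to 29, with 24 where the peak had to cover a TSS and 25 where it counted only for the nearest gene. With a TSS covered, the share was 26.1%, beside 17.2% of all protein-coding genes. For the nearest gene only, it was 27.2%, beside 21.7%. The share at similar CpG ratio was 33.1 to 36.4%, which includes 2 alternatives chosen after seeing the data, the highest CpG ratio over the TSSs of a gene and leaving out chromosome X. The KO count was 0 in each alternative run. No paired analysis was possible because the labels give no replicate numbers and the peaks come as 1 list for WT and 1 for KO, and for the same reason no replicate could be left out. Whether a gene without a peak lies below the depth of the list or lacks KDM5C was not tested, and small lists give wide intervals.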
